A study of Mus musculus with 9 samples.

Results

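Copper amine oxidase genes and lysyl oxidase genes were examined in C2C12 cells, an established mouse myoblast line that can form muscle fibres in culture. The set holds 7 of the 54697 lines of the deposited count table: Aoc3, Aoc2, Lox, Loxl1, Loxl2, Loxl3 and Loxl4, found by their symbols. Aoc3 was chosen by its level, which differed most clearly between butyrate and control libraries, and the other 6 were added as relatives. Values of all 7 genes in that comparison are therefore given as a description without a test, as are those of Aoc3 in every comparison, since each shares control or butyrate libraries with the one that chose it. RNA-seq libraries came from wild-type C2C12 cells given 750 µM butyrate, 750 µM pentanoate or neither, with 3 libraries in each group. Treatment lasted 48 h, and the control libraries carry the same label of day 2. The sources used here state neither what controls received in place of an acid nor whether replicate libraries stem from separate cultures. P-values therefore measure only how these libraries vary, which may be technical. By its title, the study asked how the 2 acids act on myogenesis.

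Both enzyme families oxidise primary amines to aldehydes and release hydrogen peroxide and ammonia, with copper and a quinone made from one of their own tyrosines. Aoc3 (vascular adhesion protein 1) sits on the cell surface of adipocytes, smooth muscle and endothelium and acts on small soluble amines. Lysyl oxidases are secreted and act on lysines of collagen and elastin, whose aldehydes then cross-link the matrix around muscle cells. Loxl2, Loxl3 and Loxl4 carry scavenger receptor cysteine-rich domains that Lox and Loxl1 lack.

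The RefSeq promoter table (GRCm38.p6, 250 bases before to 50 after the start) held 2 of the 7 genes, Aoc2 and Loxl4. Both had higher levels in every butyrate library than in any control library, and their sequences are shown to set a promoter rich in G and C beside one that is not. Capitals mark GC boxes (GGGCGG, either strand) and CCAAT boxes (CCAAT, either strand).
Loxl4 promoter, chr19:42612757-42613056, minus strand: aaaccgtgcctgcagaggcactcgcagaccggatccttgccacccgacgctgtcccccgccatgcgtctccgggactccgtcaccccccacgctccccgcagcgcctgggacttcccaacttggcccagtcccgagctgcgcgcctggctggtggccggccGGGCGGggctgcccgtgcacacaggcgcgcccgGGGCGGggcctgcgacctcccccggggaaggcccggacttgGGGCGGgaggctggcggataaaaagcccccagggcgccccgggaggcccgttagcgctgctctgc
Aoc2 promoter, chr11:101324813-101325112, plus strand: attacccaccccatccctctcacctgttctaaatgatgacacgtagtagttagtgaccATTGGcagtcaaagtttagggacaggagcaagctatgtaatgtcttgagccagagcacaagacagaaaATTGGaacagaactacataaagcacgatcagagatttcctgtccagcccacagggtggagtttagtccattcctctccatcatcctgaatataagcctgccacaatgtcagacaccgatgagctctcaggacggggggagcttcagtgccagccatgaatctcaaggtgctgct
The Loxl4 promoter was 75.0% G and C, and the Aoc2 promoter 48.3%, against a median of 52.7% over 32851 promoters. The Loxl4 window held 3 GC boxes, which began 89, 56 and 15 bases before the start site, and 35.7% of all promoters held at least 1. The Aoc2 window held no GC box but 2 CCAAT boxes on the opposite strand, and 37.4% of all promoters held that motif. TATAAA was found in neither window and in 13.6% of all promoters. An E box (CANNTG, which reads alike on both strands) was found once in the Aoc2 window, not in that of Loxl4, and in 72.3% of all promoters.

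All 7 genes are protein-coding, and coordinates are those of the deposited table in GRCm38. Aoc2 (ENSMUSG00000078651, chromosome 11, 101325063 to 101329702, plus strand) lies 902 bases before Aoc3 (ENSMUSG00000019326, chromosome 11, 101330605 to 101341938) on the same strand. Lox (ENSMUSG00000024529) is on chromosome 18 from 52516069 to 52529867, Loxl1 (ENSMUSG00000032334) on chromosome 9 from 58287738 to 58313186 and Loxl4 (ENSMUSG00000025185) on chromosome 19 from 42593982 to 42612813, all on the minus strand. Loxl2 (ENSMUSG00000034205) spans 69609068 to 69695834 of chromosome 14 and Loxl3 (ENSMUSG00000000693) 83034173 to 83052562 of chromosome 6, both on the plus strand. Exons of Loxl3 overlap those of Htra2 on the opposite strand in GENCODE M21. The sources used here do not say whether counting used the strand, so reads of Loxl3 and Htra2 may be mixed and the Loxl3 values are uncertain. Exons of Aoc3, Aoc2, Loxl1 and Loxl4 overlap no other gene there, and the genes that overlap exons of Lox or Loxl2 had 0 to 2 counts over all libraries.

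Library totals ran from 15829262 to 19305981 counts. Levels are CPM (counts scaled to a common library size by TMM), and levels of different genes are compared only per kilobase of deposited gene length. Control 3 stood apart from the other libraries: protein genes of the mitochondrial genome took 3.85% of its counts, against 1.74% to 2.22% in the other 8. In it Lox lay 0.44 above the mean of controls 1 and 2 on the log2 scale, while Loxl1, Loxl3 and Loxl4 lay at −0.32, −0.30 and −0.47. Some results turn or move without it, as stated beside them. Of 12 myoblast markers, 11 had counts in every library. Of 12 adipocyte markers, 6 had counts in every library. Among them Cebpa ran from 17.8 to 47.2, Lpl from 15.9 to 67.1, Plin4 from 10.0 to 35.8 and Pparg from 5.94 to 12.1 CPM. Cidec and Lep had no count and Adipoq was seen in butyrate 2 alone, at 0.181 CPM. Endothelial markers summed to 0.233 to 0.454 CPM in control, 1.94 to 2.83 under butyrate and 0.606 to 0.983 with pentanoate, with Kdr, Cldn5 and Erg at 0. The 1 endothelial marker that was tested, Plvap, passed the filter on low counts only through its butyrate libraries, so its call is not read. It ran from 0 to 0.116 CPM in control, 0.705 to 0.904 under butyrate and 0.055 to 0.155 with pentanoate. Blood markers summed to 1.79 to 1.98 CPM in control, 2.35 to 3.56 under butyrate and 1.60 to 1.98 with pentanoate, with Adgre1 at 0.

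Aoc3 was the gene of the set that set the 3 groups apart most. Its level was 32.0, 30.8 and 29.1 CPM in controls 1 to 3, 3.35, 3.08 and 3.55 CPM in the butyrate libraries and 17.4, 15.3 and 18.7 CPM in the pentanoate libraries. No 2 of these groups overlapped, and pentanoate lay between the others. The means were 30.7 ± 1.47 CPM in control, 3.33 ± 0.237 with butyrate and 17.1 ± 1.72 with pentanoate (SD, n = 3 each). The level with butyrate rested on 51 to 59 counts per library, against 449 to 552 in control. The fitted difference of butyrate from control was −3.20 on the log2 scale (SE 0.13), which is 9.19-fold lower, and that is the value for which the gene was chosen. Leaving out any library kept it between −3.24 and −3.14. In bulk RNA, fewer cells with the transcript and less transcript per cell cannot be told apart.

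Pentanoate lay at −0.84 to control on the log2 scale (SE 0.12), a 1.79-fold lower level of Aoc3, and at −0.92 to −0.75 when any library was left out. The pentanoate libraries played no part in choosing the gene, but the control libraries did. The difference of pentanoate from butyrate was 2.36 (SE 0.13), and 2.27 to 2.44 over the same omissions.

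Smooth muscle is a cell type in which Aoc3 is known, and some of its markers were lower with butyrate as well. The 12 markers summed to 5409 to 6214 CPM in control, 3192 to 3476 under butyrate and 4899 to 5534 with pentanoate. Of the 10 tested, 6 fell with butyrate (8 without control 3 and 8 with the replicate block), and the median log2 change was −0.95. Of all genes tested 6.43% were called higher with butyrate and 4.95% lower. Over all genes the calls lower with butyrate rose as well, from 696 to 1400 with the block and 1042 without control 3. None of the 10 was called with pentanoate against control, where the median was −0.12 (−0.23 without control 3). Acta2, the smooth muscle actin that myoblasts also express, made up the largest part of the smooth muscle sum. It went from a mean of 3671 CPM in control to 1634 under butyrate, while Tagln, another marker of that cell type, was at 2.94 and 1.25 CPM. Of 6 tested adipocyte markers, 1 rose and 2 fell with butyrate, with a median of −0.08 (0.47 without control 3). All 12 adipocyte markers, tested or not, summed to 91.6 to 132 CPM in control, 61.3 to 99.0 under butyrate and 100.3 to 149 with pentanoate. Of 11 tested myoblast markers, 1 rose and 4 fell with butyrate (1 and 7 with the block, 1 and 6 without control 3), and none was called with pentanoate against control (1 rose without control 3). Whether these markers have a part in the Aoc3 values was not tested.

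Aoc2, a paralogue named for its expression in the human retina, was near the lower end of what was counted. Counts were 29, 48 and 30 in control, 48, 77 and 51 with butyrate and 43, 47 and 46 with pentanoate. In CPM that was 1.69 to 2.68 in control, 2.82 to 4.65 under butyrate and 2.22 to 2.59 with pentanoate. The butyrate libraries were above both other groups, and control and pentanoate overlapped. The fitted difference of butyrate from control was 0.73 (SE 0.27), opposite in sign to that of Aoc3, and 0.49 to 0.96 when any library was left out. Per kilobase, Aoc3 was 6.33 to 10.4 times the level of Aoc2 in control, 3.24 to 4.30 times with pentanoate and 0.364 to 0.653 times with butyrate. Per kilobase the order of both amine oxidases was thus turned round in all 3 butyrate libraries. In counts Aoc3 was below Aoc2 in butyrate 2 alone (51 against 77). It stayed above in butyrate 1 (57 against 48) and butyrate 3 (59 against 51), so there the turn rests on gene length. Aoc2 did not pass the test with pentanoate against control (0.22, 95% interval −0.38 to 0.81, adjusted p = 0.751, and 0.066 to 0.44 over the omissions) or between the acids (−0.52, interval −1.10 to 0.06, adjusted p = 0.348, and −0.66 to −0.29 over the omissions).

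**Figure D1:**
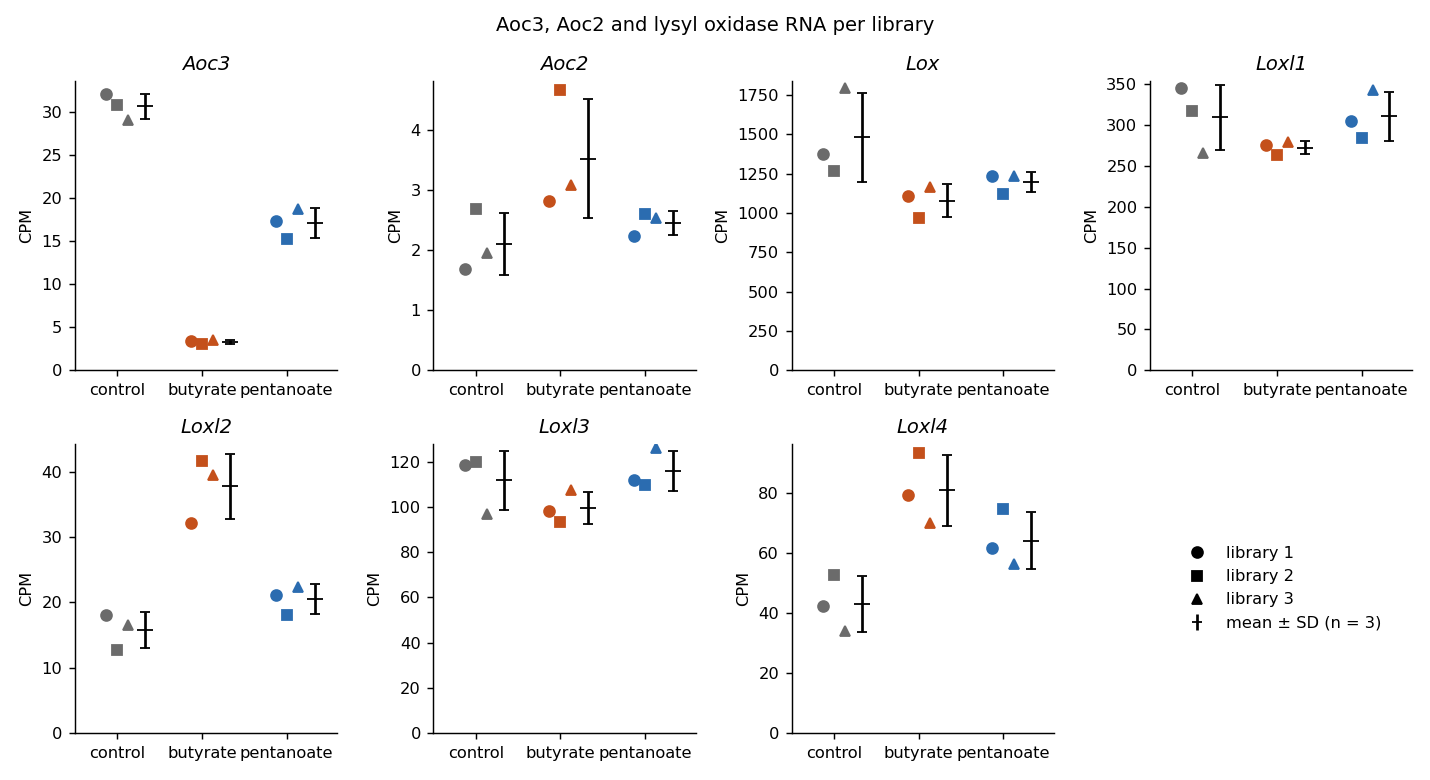
CPM of each gene (vertical axes from 0) in the 9 libraries by group, with a symbol for each library number and the mean ± SD (n = 3) beside it. Aoc3 has 3 separate groups, at 29.1 to 32.0, 3.08 to 3.55 and 15.3 to 18.7 CPM, and Loxl2 is high in the butyrate libraries, at 32.2 to 41.7 CPM.

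Lox, which starts the cross-linking of collagen and elastin, was by far the most abundant of the lysyl oxidases. Its level was 1376, 1266 and 1797 CPM in controls 1 to 3, 1106, 965 and 1166 CPM with butyrate and 1232, 1122 and 1236 CPM with pentanoate. Every control library was above every treated one, by a narrow margin for control 2, and the treated groups overlapped. Butyrate lay at −0.46 to control (SE 0.13), and at −0.28 without control 3, the library with the highest level. Pentanoate lay at −0.31 to control (SE 0.13, interval −0.60 to −0.02, adjusted p = 0.339), and at −0.14 without control 3 (adjusted p = 0.578), so it did not pass the test. Between the acids the difference was 0.15 (interval −0.14 to 0.44, adjusted p = 0.632), with 0.054 to 0.19 when any library was left out.

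Loxl1, which acts mainly on elastic fibres, differed little between groups. It stood at 345, 318 and 266 CPM in control, 275, 264 and 279 with butyrate and 305, 284 and 343 with pentanoate. Control spanned both other groups almost fully, while butyrate and pentanoate did not overlap. The differences were −0.18 for butyrate from control (SE 0.11, with −0.09 without control 1 and −0.27 without control 3), 0.00 for pentanoate from control (interval −0.24 to 0.25, adjusted p = 0.989) and 0.19 between the acids (interval −0.05 to 0.43, adjusted p = 0.427, and 0.091 to 0.25 over the omissions).

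Loxl3, a lysyl oxidase with scavenger receptor domains, followed Loxl1. Its level was 119, 120 and 96.9 CPM in control, 98.2, 93.4 and 107 with butyrate and 112, 110 and 126 with pentanoate. Control 3 was low in both genes and fell among the butyrate libraries. Neither pentanoate against control (0.05, interval −0.18 to 0.29, adjusted p = 0.861) nor pentanoate against butyrate (0.22, interval −0.02 to 0.46, adjusted p = 0.331) passed the test, and butyrate lay at −0.17 to control (SE 0.11, with −0.25 to −0.10 when any library was left out). Without control 3 the difference of pentanoate from control turned to −0.09 for Loxl1 and −0.03 for Loxl3.

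Loxl2, which can oxidise collagen IV of basement membranes, was higher with butyrate than in either other group. It had 18.0, 12.7 and 16.5 CPM in control, 32.2, 41.7 and 39.5 with butyrate and 21.1, 18.0 and 22.4 with pentanoate. All butyrate libraries were above the rest, and pentanoate 2 fell just below the highest control. Means were 15.7 ± 2.74, 37.8 ± 4.97 and 20.5 ± 2.26 CPM (SD, n = 3 each), and butyrate lay at 1.27 to control (SE 0.16). Pentanoate against control did not pass the test (0.38, SE 0.16, interval 0.04 to 0.73, adjusted p = 0.321, and 0.25 to 0.48 over the omissions).

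Between the acids Loxl2 was lower with pentanoate by a tested margin. It stood at −0.88 on the log2 scale to butyrate (SE 0.15, interval −1.22 to −0.55, adjusted p = 0.0139, and 0.00483 with the replicate block). The call was lost without butyrate 2, butyrate 3, pentanoate 1 or pentanoate 2, with adjusted p of 0.0662 to 0.0706. It held without control 3 (adjusted p = 0.00489).

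Loxl4 was also higher under the acids, in all libraries of both. It had 42.3, 52.6 and 34.2 CPM in control, 79.3, 93.5 and 70.1 with butyrate and 61.7, 74.6 and 56.3 with pentanoate. Both treated groups lay above all controls and overlapped each other. Within every group, library 2 was the highest and library 3 the lowest. Butyrate lay at 0.91 to control (SE 0.17), and at 0.78 without control 3.

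Pentanoate against control, at 0.58 for Loxl4 (SE 0.17, interval 0.20 to 0.95), did not pass the test without a block (adjusted p = 0.175). With the replicate number as a block it rose by 0.59 (SE 0.08, adjusted p = 0.00457). Between the acids the difference was −0.34 (SE 0.17, interval −0.70 to 0.03, adjusted p = 0.337), and with the block it was −0.34 (SE 0.08, adjusted p = 0.0219). Both calls for Loxl4 thus exist in the blocked fit alone among the settings tried.

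**Figure D2:**
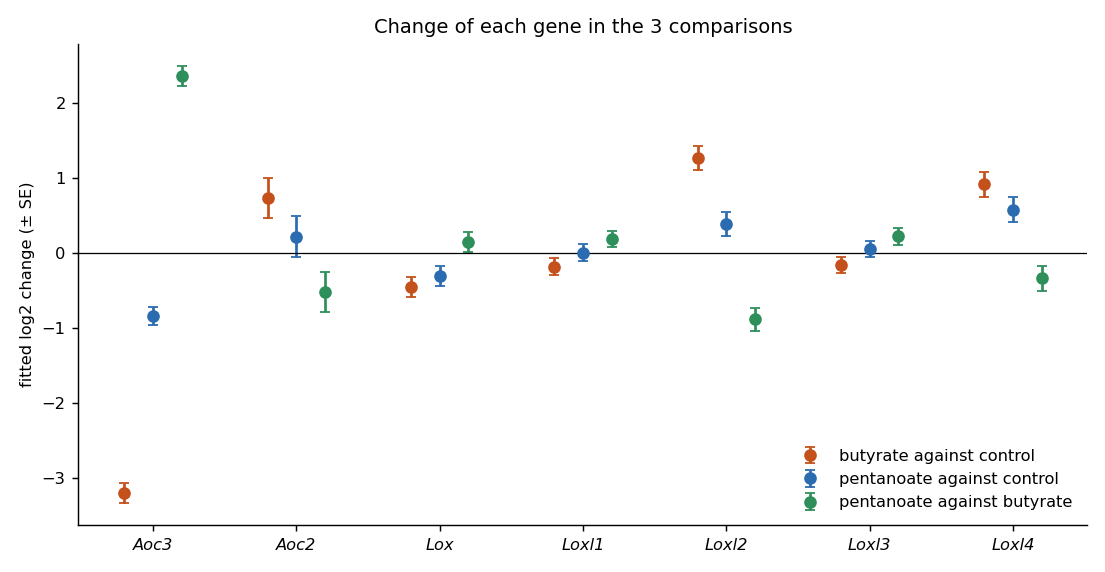
Fitted log2 change of each gene (points) with its standard error (bars) in the 3 comparisons. Aoc3 lies at −3.20 and −0.84 against control, Loxl2 at 1.27 and 0.38, Loxl4 at 0.91 and 0.58, and Loxl1 and Loxl3 stay within 0.22 of 0.

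All 7 genes passed the filter on low counts. For butyrate against control, 11.4% of the 14066 genes tested were called at an adjusted p under 0.05 by edgeR's quasi-likelihood test, and no count of calls is given for the members. In that comparison 5 of the 7 had no overlap between the 3 and 3 libraries, where 29.1% of all genes had none, and nothing is read from this count, since the comparison chose the set. For pentanoate against control, none of the 6 members tested was called by edgeR or by the DESeq2 Wald test, where edgeR called 0.803% of all genes, 0.0213% as lower. Of the 6, 3 had an unadjusted p under 0.05 in edgeR's test (Lox, Loxl2 and Loxl4). By p they ranked 1644, 1448 and 473 of 14066, so at least 1644 genes passed that threshold and nothing is read from the 3. With the block Loxl4 was called higher. Without Aoc3, 2 of the 6, Lox and Loxl4, had no overlap, where 18.5% of all genes had none. Between the acids 1 of the 6 members tested was called, Loxl2, which was lower with pentanoate, where 3.42% of all genes were called, 1.81% as higher and 1.61% as lower, and 4 of these 6 had no overlap, where 30.8% of all genes had none. Only 1 pair of compounds was compared, which differ by a single carbon in chain length, at the same dose and time, and p-values are adjusted over all genes tested. Comparisons with control share the control libraries and are not independent of each other. Median log2 changes of the members were −0.17, 0.05 and 0.15 in the 3 comparisons, beside −0.02, −0.01 and 0.00 over all genes tested. Without control 3 the members' medians were −0.25, −0.03 and 0.15.

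Per kilobase, the 5 lysyl oxidases summed to 439 ± 43.8 CPM in control, 355 ± 22.1 with butyrate and 387 ± 21.2 with pentanoate (SD, n = 3 each). Lox made up 65.7% to 76.8% of that sum in control, with control 3 the highest, 60.7% to 64.8% under butyrate and 63.3% to 65.4% with pentanoate. Loxl2 and Loxl4 together made up 2.29% to 3.70% in control, 6.40% to 9.04% under butyrate and 4.31% to 5.77% with pentanoate. These ranges do not overlap, but both genes are the lysyl oxidases that were higher with butyrate. The separation thus follows from which genes were summed, and nothing is read from it. Loxl4 alone overlapped between the acids, at 4.45% to 6.71% under butyrate and 3.29% to 4.86% with pentanoate. The order of the mean levels per kilobase was Lox, Loxl1, Loxl3, Loxl4 and Loxl2 in all 3 groups. Neighbours in that order overlapped in a single case, Loxl3 at 20.3 to 23.3 and Loxl4 at 16.6 to 22.2 CPM per kilobase, both under butyrate. Shares within a library do not depend on how libraries are scaled.

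**Figure D3:**
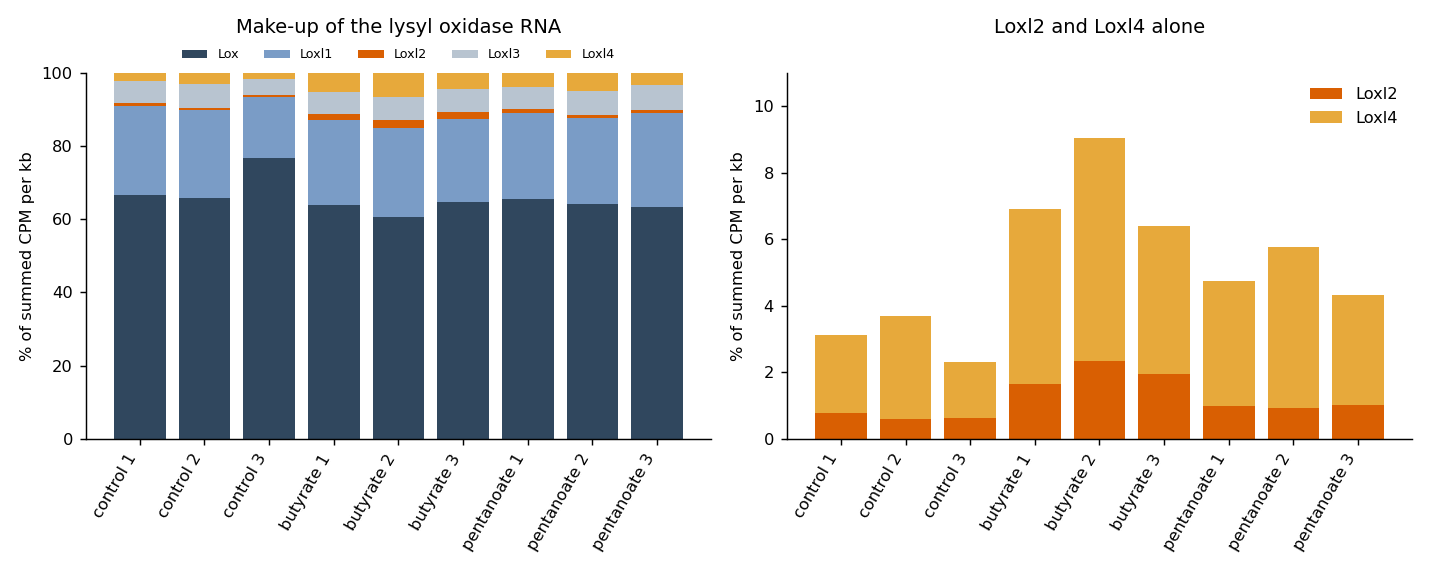
Share of each lysyl oxidase in the summed CPM per kilobase of the family (vertical axes, percent) in the 9 libraries, and on the right Loxl2 and Loxl4 alone. Both genes together reach 6.40% to 9.04% in butyrate libraries against 2.29% to 3.70% in control.

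None of the tested genes around Aoc3 was called lower with butyrate, which is near the share of all genes called lower. Within 250 kb of its start, 23 other genes were tested, each placed by its lower coordinate on either strand. Aoc2 is among them and, as a member, is given without a test for butyrate against control. With butyrate 2 of the 23 were called higher and none lower. Of all genes tested 6.43% were called higher and 4.95% lower (56.5% of calls higher, and 68.8% with upper-quartile scaling). The log2 changes of the 23 ran from −0.29 to 0.97. The 2 genes were Cntnap1, a protein of axon and myelin contacts (0.97, SE 0.18, adjusted p = 0.00779; means 5.34 ± 0.638 CPM in control and 10.5 ± 0.212 under butyrate), and Rnd2, a small GTPase (0.75, SE 0.10, adjusted p = 0.00118; means 16.9 ± 0.0492 CPM in control and 28.5 ± 1.54 under butyrate). Without a call, Mlx (−0.23) and Ifi35 (−0.18) were lower in every butyrate library than in any control library. Aoc2, described without a test, was higher in every one. Of all genes 29.1% had no such overlap. None of the 23 was called with pentanoate against control, with changes from −0.18 to 0.97.

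**Figure D4:**
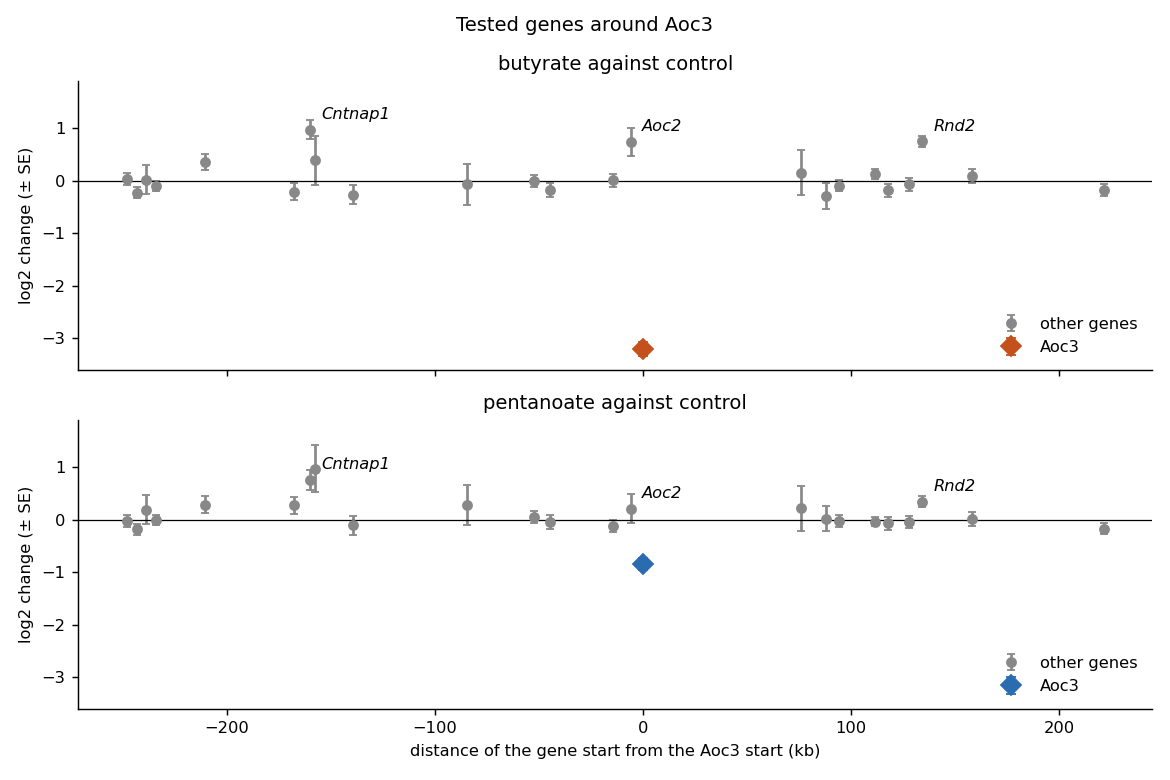
Fitted log2 change with its standard error (vertical axis) of the 23 tested genes around Aoc3 and of Aoc3 itself, against the distance of each start from the Aoc3 start in kb. Each start is the lower coordinate of the gene, on either strand. With butyrate the neighbours lie between −0.29 and 0.97 and Aoc3 at −3.20.

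The genes whose levels over the 9 libraries were most like those of Aoc3 were looked up among 10094 protein-coding genes with a mean of at least 5 CPM, by Pearson's r of log2 CPM. The libraries fall into 3 groups, so these values describe the pattern across groups and carry no test. The 5 highest were Gpam, an acyltransferase of triglyceride synthesis (r = 0.983), Tgfb1i1, a focal adhesion adaptor (0.983), Ifitm3, an interferon-induced membrane protein (0.979), Insc, a spindle orientation adaptor (0.978), and Adck1 (0.977). Their spans were smaller: Tgfb1i1 went from a mean of 136.8 CPM in control to 70.0 under butyrate and 117.6 with pentanoate. The 5 most opposite were the chemokine gene Cxcl1 (r = −0.988), Manba, a lysosomal mannosidase (−0.982), Sat1, the spermidine and spermine acetyltransferase (−0.981), Ampd3, an AMP deaminase (−0.978), and Smyd4 (−0.978). For the others the closest gene was Ahcy for Aoc2 (r = 0.965), Gulp1 for Lox (0.986), Hdac8 for Loxl1 (0.960), Ctsl for Loxl2 (0.981), Pqbp1 for Loxl3 (0.965) and Mcam for Loxl4 (0.990). Mcam, an adhesion molecule, had mean levels of 11.3 CPM in control, 27.3 with butyrate and 18.4 with pentanoate.

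Of 10 genes listed as other amine oxidases 7 were tested, and Aoc1, the secreted diamine oxidase of the same copper family, had no count. Pcyox1 and Pcyox1l, both among the 7, are prenylcysteine oxidases and not amine oxidases. Paox, a polyamine oxidase of peroxisomes, fell with butyrate (−0.72, SE 0.15, adjusted p = 0.0102), with means of 25.2 ± 3.89 CPM in control and 15.3 ± 2.35 under butyrate (SD, n = 3 each, as in the means that follow). That call was lost without butyrate 2 (0.0515). It was the only one of the 7 called, the median was 0.05 (0.09 without control 3), and none was called with pentanoate against control or between the acids. With the block, and also without control 3, 1 was called higher between the acids. In these settings calls over all genes rose too, so such counts in this and the following lists are not read as results. In the 3 comparisons they were 1601, 113 and 481 in the main fit. With the block they were 2916, 514 and 1483, and without control 3 they were 2285, 139 and 1469.

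Polyamines are among the amines that oxidases consume. Of 11 tested polyamine genes 2 rose with butyrate and none fell (3 and 1 with the block, and likewise without control 3), the median being 0.12 (0.19 without control 3). Sat1, which acetylates polyamines for breakdown or export, rose by 0.68 (SE 0.08, adjusted p = 0.00053), with means of 77.4 ± 2.57 CPM in control and 123.7 ± 2.92 under butyrate. Azin2, an antizyme inhibitor, rose by 1.08 (SE 0.13, adjusted p = 0.000687), with means of 21.6 ± 3.91 CPM in control and 45.9 ± 3.24 under butyrate. With pentanoate Azin2 rose by 0.78 (SE 0.13, adjusted p = 0.0241), and it did not pass without control 2, any butyrate library or any pentanoate library (up to 0.133) and with only the 2 groups in the fit (0.114). Sat1 was lower with pentanoate than with butyrate (−0.55, SE 0.08, adjusted p = 0.00656), the only call between the acids on this list (2 fell with the block and without control 3).

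Aldehydes and hydrogen peroxide are what amine oxidases leave behind. None of 10 tested aldehyde dehydrogenases was called with butyrate (4 rose with the block and 1 without control 3), and the median was 0.22 (0.13 without control 3). None was called with pentanoate against control, and 1 was lower between the acids, Aldh3a1, whose call was lost in 6 of 9 omissions of a library (adjusted p up to 0.170). Of 13 genes that remove hydrogen peroxide 2 fell with butyrate (with the block 4 rose and 3 fell, and without control 3 the counts were 3 and 1), with a median of 0.10. Gpx1 (−0.43, adjusted p = 0.0147) did not pass without butyrate 1 or butyrate 3 (up to 0.0810) or in the fit to 2 groups. Prdx4 (−0.38, adjusted p = 0.0407) was lost in 8 of 9 omissions (up to 0.169). None was called with pentanoate against control, and between the acids 1 was higher and 1 lower (1 and 3 with the block and without control 3). These were Prdx4 and Prdx1, whose calls were lost in 7 and 6 of 9 omissions. All these enzymes need copper. Of 12 tested genes of copper handling, metallothioneins among them, 2 rose with butyrate (4 without control 3, and with the block 2 rose and 1 fell). Their median was −0.03 (0.06 without control 3). Mt2, a metallothionein, rose by 1.41 (SE 0.25, adjusted p = 0.00538), with means of 1.503 ± 0.0553 CPM in control and 4.01 ± 0.251 under butyrate. Atox1 rose by 0.46 (adjusted p = 0.0322), a call lost in 4 of 9 omissions (up to 0.137). None of the 12 was called with pentanoate against control or between the acids, where with the block 1 was higher and 1 lower and without control 3 the counts were 1 and 2.

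Lysyl oxidases are cleaved from proenzymes and docked on the matrix by other proteins, and 11 of 14 such genes were tested. With butyrate 1 rose and 1 fell (3 and 2 with the block, 1 and 3 without control 3), with a median of −0.19 (−0.09 without control 3). Fmod, the collagen-binding proteoglycan fibromodulin, which also binds Lox, fell by 1.14 (SE 0.12, adjusted p = 0.00032), with means of 129.4 ± 20.9 CPM in control and 58.7 ± 1.41 under butyrate. Fmod was higher with pentanoate than with butyrate by 1.39 (SE 0.12, adjusted p = 0.000535), at 153.7 ± 11.2 CPM. Tnxb, a tenascin, went from 0.174 ± 0.199 CPM in control to 3.02 ± 1.27 under butyrate, close to the lower end of detection. It passed the filter on low counts only through its butyrate libraries, so its call, the 1 rise on this list, is not read. Bmp1, the protease that cleaves the Lox proenzyme, stood at −0.21 (SE 0.11, adjusted p = 0.268) and Fn1, the fibronectin gene, at 0.03 (SE 0.13, adjusted p = 0.913). None of the 11 was called with pentanoate against control (1 rose with the block), with a median of 0.11. Between the acids 2 were higher and 1 lower with pentanoate (4 and 1 without control 3), with a median of 0.12. The 1 lower was Tnxb, whose call is not read there either.

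Of 14 tested elastic fibre genes 3 rose and 2 fell with butyrate (3 and 4 with the block and without control 3), and the median was −0.19. Fbln2, which encodes fibulin 2, rose by 0.82 (SE 0.10, adjusted p = 0.000823), with means of 287.4 ± 12.8 CPM in control and 507.4 ± 31.0 under butyrate. Fbln5, whose product tethers Loxl1 to elastin, fell by 0.74 (SE 0.16, adjusted p = 0.0153), with means of 80.8 ± 13.3 CPM in control and 48.4 ± 8.06 under butyrate, but it did not pass without control 1, butyrate 1 or butyrate 2 (up to 0.0750). With pentanoate against control 1 rose (5 with the block), Fbln1 (0.59, SE 0.11, adjusted p = 0.0352), and the call was lost in 8 of 9 omissions of a library, all but that of control 3, with adjusted p up to 0.167. Its median was 0.39. Between the acids 3 were higher with pentanoate and none lower (6 and 1 with the block, 4 and 1 without control 3), and the median was 0.32. Efemp2, the product of which binds Lox and tropoelastin, was among them (0.48, SE 0.09, adjusted p = 0.0214), and its call was lost without any butyrate or any pentanoate library (up to 0.146).

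Fibrillar collagens, the main substrate of Lox, gave no call in 11 genes with either acid against control (2 fell with butyrate and 3 rose with pentanoate with the block), with medians of 0.03 and 0.29 (−0.04 and 0.12 without control 3), and 1 was higher between the acids (4 with the block). Of 4 tested basement membrane collagens 1 rose with butyrate and none with pentanoate (2 and 2 with the block), with medians of 0.31 and 0.36. The 1 was Col4a1, whose call was lost in 7 of 9 omissions of a library (adjusted p up to 0.169) and in the fit to 2 groups (0.118). Of 18 genes that modify lysine and proline of collagen 1 rose and 2 fell with butyrate (4 and 4 with the block, 2 and 4 without control 3), with a median of −0.03 (−0.05 without control 3). P3h1, a prolyl hydroxylase of procollagen, fell by 0.68 (SE 0.11, adjusted p = 0.00285), with means of 95.3 ± 8.86 CPM in control and 59.5 ± 3.88 under butyrate. None was called with pentanoate against control, and 4 were higher between the acids (6 and 1 lower with the block and without control 3), P3h1 among them (0.59, SE 0.11, adjusted p = 0.017), though not without butyrate 2, butyrate 3, pentanoate 1 or pentanoate 3 (up to 0.112).

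**Figure D5:**
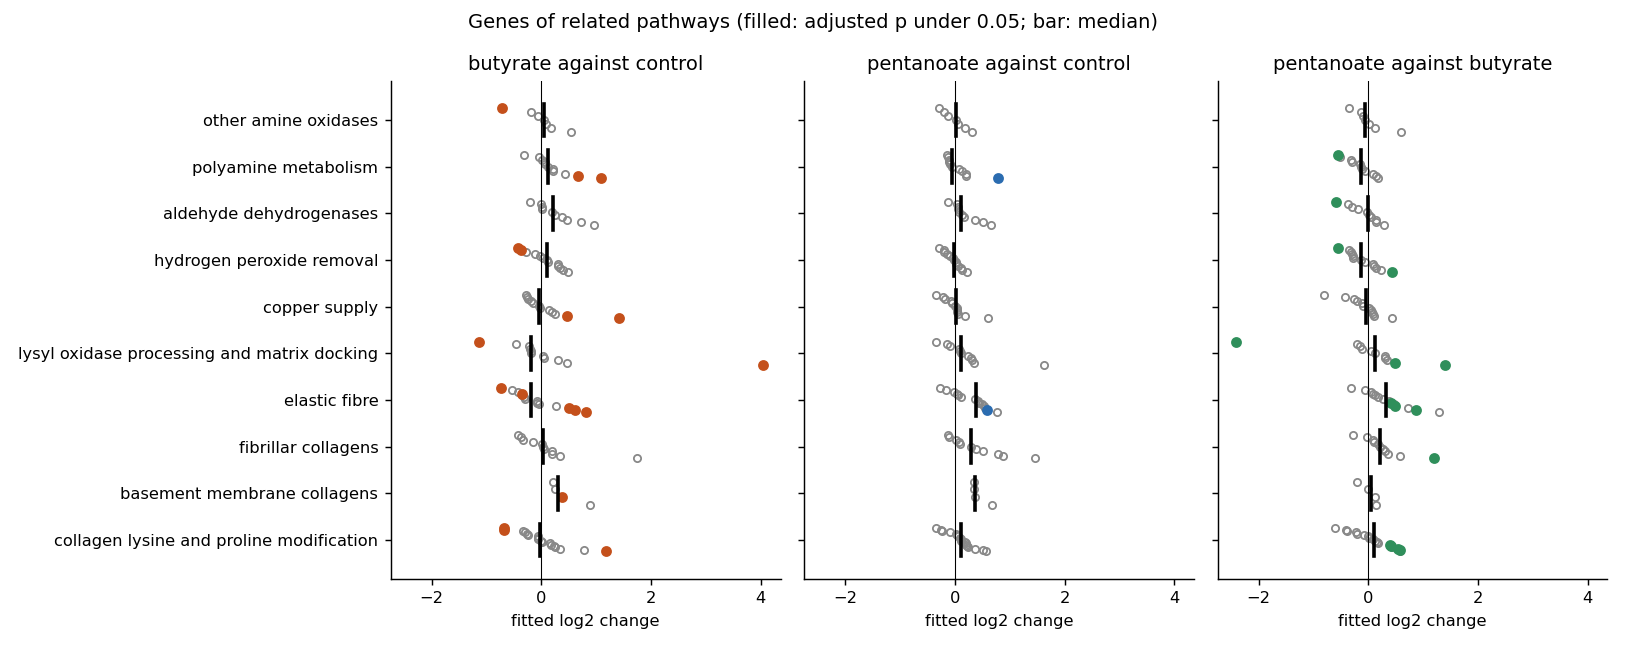
Fitted log2 change (horizontal axes) of each tested gene of 10 related lists in the 3 comparisons, filled where the adjusted p was under 0.05, with the list's median as a bar. Most points are open and lie near 0, and the polyamine list has 2 filled points above 0 with butyrate, Sat1 and Azin2.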

How the data were processed

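Per the labels' protocols, RNA was extracted with Trizol and a SMARTER kit for mRNA was used for the libraries. The authors deposited raw counts per gene for 9 libraries, and the build was GRCm38 (mm10), per the submitters' processing notes. The sources used here do not name the aligner, the counting program or the strand setting. Of 54697 lines, 54495 identifiers were found in GENCODE M21, and 165 lines without an Ensembl identifier were kept.

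Counts were used as deposited. filterByExpr left 14066 genes, libraries were scaled by TMM, and edgeR's quasi-likelihood test (robust) was fitted to all 9 libraries with group as the factor (6 residual degrees of freedom). P-values were adjusted by Benjamini-Hochberg over all genes tested, with calls under 0.05. Each standard error is the size of the log2 change over the square root of F and is approximate, as is its 95% interval. The common biological coefficient of variation was 14.4%. Tools were edgeR 4.0.16, limma 3.58.1 and DESeq2 1.42.0 in R 4.3.3, with matplotlib 3.10.9 and pandas 2.3.3 in Python 3.11.15.

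Members and gene lists were chosen with earlier results of these data known. The naming rule takes all members, the 3 called genes of smallest p in each list, tested genes within 250 kb of Aoc3 and the genes most like each member (5 highest and 5 lowest for Aoc3). The text names part of these and says for them where a call was lost when libraries were left out. One listed symbol, Ccn2, was matched by its older name Ctgf.

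Replicate numbers come from the labels. Libraries of equal number deviated together from their group means (r = 0.20 to 0.41 in 9 of 9 pairs, each over 0.1), unlike the 18 other pairs (r = −0.33 to 0.013), whose values the centring lowers. A fit with the number as a block is given where it changes a call or moves a count by over 1.5 times. Alternatives were DESeq2 size factors, the DESeq2 Wald test, other filters on low counts, the groups compared alone, the block and the omission of each library. Library totals and upper-quartile scaling were added after seeing the data.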

Additional observations from a re-analysis of the deposited data

How the results depend on the processing

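Every member kept its direction under the other scalings and filters, the replicate block, the fit to 2 groups and the DESeq2 Wald test, and Aoc2 gave no value with the filter at 5 CPM. Aoc3 for pentanoate against control was −0.83 in the fit to 2 groups and ranged from −0.92 to −0.75 when libraries were left out. Loxl4 was called with the block for pentanoate against control (0.59) and between the acids (−0.34). Leaving out libraries gave −0.99 to −0.80 for Loxl2 between the acids, and for pentanoate against control −0.086 to 0.078 for Loxl1 and −0.033 to 0.11 for Loxl3, whose signs are not determined.

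Counts over all genes were 1601 for butyrate against control, 113 for pentanoate against control and 481 between the acids. In that order they were 2916, 514 and 1483 with the block and 1004, 25 and 1365 in fits to 2 groups. The DESeq2 Wald test gave 328 for pentanoate against control and 884 between the acids. With no filter the count for pentanoate against control was 278, and at 5 CPM those for butyrate against control and between the acids were 1023 and 319. Leaving out libraries gave 753 to 2285, 27 to 139 and 75 to 1469. Upper-quartile scaling moved the share of higher calls between the acids from 53.0% to 41.1%. The causes were not tested. Of 34 calls of list genes and neighbours given by the naming rule, 11 held in every setting run. That of Tnxb with butyrate, which is not read, is among them. The block changed no other call of a tested member. Aoc2 rested on 29 to 77 counts per library.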
